A study of Mus musculus with 2 samples.

Results

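Cytokine receptors of T cells have no kinase activity of their own and signal through JAK kinases bound to their tails, which phosphorylate STAT transcription factors. Jak1 and Jak3 serve the receptors of IL-2, IL-4, IL-7 and IL-21, while Jak2 and Tyk2 act with receptors such as that of IL-12. In T cells STAT5 carries the IL-2 signal that sustains Foxp3 in regulatory T cells (Tregs), STAT3 carries IL-6, IL-10 and IL-21 signals, STAT4 carries IL-12 and STAT6 carries IL-4. Socs3 is induced by STATs and inhibits JAKs bound to certain receptors, in particular those that use gp130, the shared subunit of the IL-6 family.

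The genes described here are the kinases Jak1, Jak2, Jak3 and Tyk2, the cytokine-activated STATs Stat3, Stat4, Stat5a, Stat5b and Stat6, and Socs3. They were taken as every probe set whose platform annotation names 1 of these symbols and no other. All 10 genes were found, with 22 of the 34945 probe sets that carry 1 symbol, among 18193 genes in all. They were compared between Hopx-/- and Hopx-sufficient mouse Tregs, with 1 single-colour Affymetrix array of each. Hopx is a small homeodomain protein that acts as a transcription cofactor. The Tregs of both groups were induced in vivo through dendritic cells in immunized animals and were sorted by flow cytometry as cells positive for CD25 and Foxp3. Strain, age, antigen and the number of animals per array are not given in the sources used here. Hopx itself was 35.6-fold lower on the Hopx-/- array (2 probe sets, log2 differences of -4.87 and -5.44).

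The deposited values are on a log scale, taken here as log2, from which the average of both arrays had been subtracted probe set by probe set. An array's value is therefore the other's with its sign turned, and no expression level can be read from them. A difference is Hopx-/- minus Hopx-sufficient, centred on the median of all probe sets with 1 symbol, and a gene has the mean over its probe sets. Replicates are lacking (1 array per genotype), so no difference carries an error between samples or a test. A pair of measured yardsticks is given as a description instead. The pooled standard deviation between probe sets of the same gene was 0.18 (9010 genes), and 18 probe sets for bacterial and phage RNA spiked into the hybridization lay between -0.22 and 0.01.

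All 10 genes had a mean above 0, from 0.03 for Jak3 to 0.34 for Socs3, with a median of 0.12, against a median of 0.00 over all genes; the mean of Jak3 turns negative when 2 probe sets that it shares with a neighbouring gene are counted. Over all genes 50.1% lay above 0. In bulk RNA, more cells of a type and more RNA per cell cannot be told apart. The differences were small. Socs3 was the only gene of the set to differ by at least 0.32 on the log2 scale (25% higher). Upward 4.09% of all genes reached this size, and 11.0% did in either direction. A count of 1 of 10 was thus near the share over all genes. None of the 10 reached 1.5-fold, which 1.61% of all genes did in either direction. In absolute size Socs3, Stat4 and Jak1 exceeded both the spread between probe sets of a gene and the largest spike-in difference. The other 7 genes were smaller than both. Sign is left out here, since the spike-ins had a median of -0.12 while all 10 gene means were above 0. The spread is that between single probe sets, while most of the genes are means over several.

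**Figure D1:**
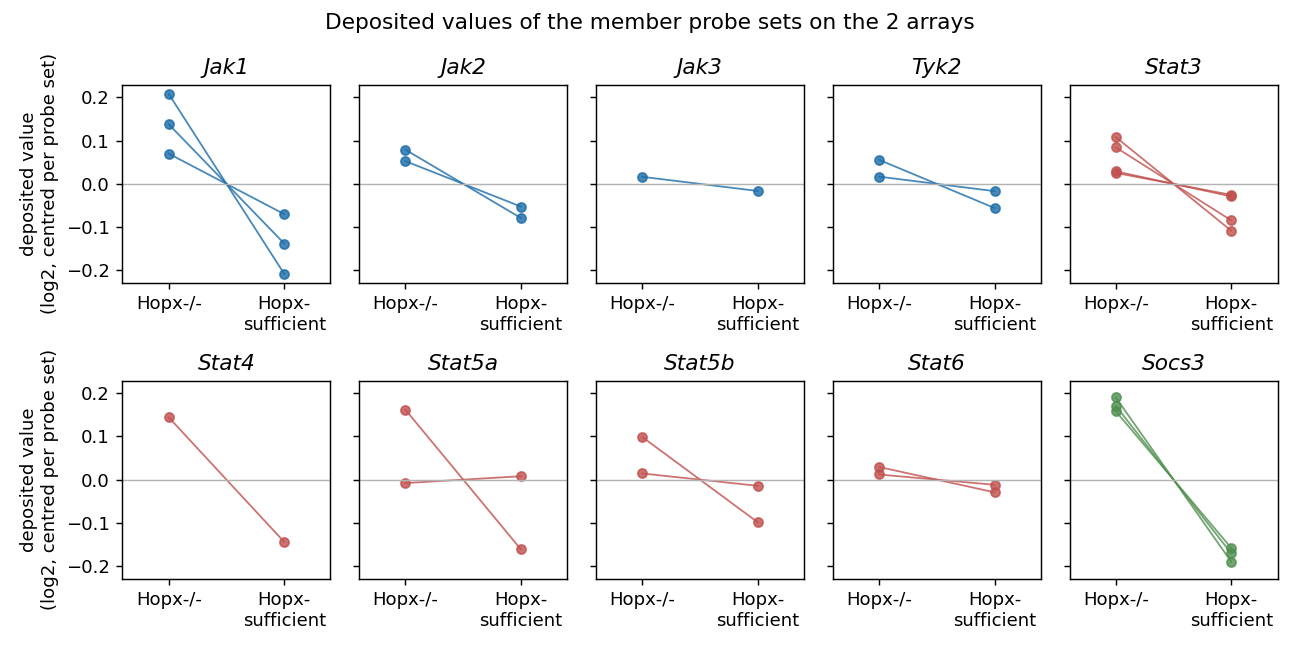
Deposited log2 values, centred per probe set, for each of the 22 probe sets (joined points) on the Hopx-/- array (left in each panel) and the Hopx-sufficient array (right), coloured by role (JAK kinases blue, STATs red, Socs3 green). The lines of 21 probe sets run downward from Hopx-/- to Hopx-sufficient, 1 Stat5a probe set runs the other way, and 2 probe sets that Jak3 shares with another gene are not drawn.

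Jak1, the kinase used by the widest range of cytokine receptors, had the largest difference of the kinases. Its 3 probe sets had deposited values of 0.14, 0.07 and 0.21 on the Hopx-/- array and -0.14, -0.07 and -0.21 on the Hopx-sufficient array. All 3 were thus higher on the Hopx-/- array, but they disagreed in size, with log2 differences of 0.27, 0.13 and 0.41. The mean was 0.27 ± 0.14 (SD over 3 probe sets), or 1.21-fold, and 6.73% of all genes had a difference at least as high.

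Jak2, which serves the receptors of IL-12 and interferon-gamma among others, had deposited values of 0.08 and 0.05 on the Hopx-/- array and -0.08 and -0.05 on the Hopx-sufficient array. Its difference was 0.12 ± 0.04 (SD over 2 probe sets), or 1.09-fold. Tyk2, a partner of Jak2 at the IL-12 receptor and of Jak1 at the type I interferon receptor, had 0.02 and 0.06 on the Hopx-/- array and -0.02 and -0.06 on the Hopx-sufficient array. Its difference was 0.07 (0.03 and 0.10 by probe set), and 35.1% of all genes lay as high or higher.

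Jak3, the kinase that binds the common gamma chain, stood closest to 0. Its only probe set with no other gene had 0.02 on the Hopx-/- array and -0.02 on the Hopx-sufficient array, a difference of 0.03. A further 2 probe sets are annotated to both Jak3 and Insl3, which overlap on mouse chromosome 8 in the GRCm38.p6 gene table, and gave 0.03 and -0.15. Counting them moved the Jak3 mean to -0.03. The sign of its difference therefore depends on which probe sets are read.

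Stat4, the STAT of the IL-12 receptor, had the largest difference of the STATs. Its 1 probe set had 0.14 on the Hopx-/- array and -0.14 on the Hopx-sufficient array. The difference was 0.28, or 1.21-fold, which 6.02% of all genes reached or passed. With a single probe set it has no check within the array.

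The Stat5 genes are close paralogs that lie side by side, and their products act largely together downstream of IL-2. Stat5a had deposited values of -0.01 and 0.16 on the Hopx-/- array and 0.01 and -0.16 on the Hopx-sufficient array. Its probe sets thus gave differences of -0.02 and 0.32, with a mean of 0.15, and a gap this wide or wider between probe sets was found in 30.5% of genes with several. Stat5b had 0.01 and 0.10 on the Hopx-/- array and -0.01 and -0.10 on the Hopx-sufficient array, for differences of 0.02 and 0.19 and a mean of 0.11. In each of the paralogs 1 probe set lay near 0 and the other higher, and all 4 carry the suffix for probe sets that read several transcripts of a gene.

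Stat3, which acts downstream of IL-6, IL-10 and IL-21, was covered by 4 probe sets, more than any other gene of the set. Their deposited values were 0.03, 0.11, 0.08 and 0.03 on the Hopx-/- array and -0.03, -0.11, -0.08 and -0.03 on the Hopx-sufficient array. All 4 were higher on the Hopx-/- array, with differences between 0.04 and 0.21 and a mean of 0.12 ± 0.08 (SD over 4 probe sets). Stat6, the STAT of IL-4, had 0.03 and 0.01 on the Hopx-/- array and -0.03 and -0.01 on the Hopx-sufficient array. Its difference of 0.03 (0.05 and 0.02 by probe set) was the smallest of the STATs, and 42.2% of all genes lay at or above it.

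Socs3, the feedback inhibitor, had the largest difference of the 10 genes. Its 3 probe sets had 0.16, 0.17 and 0.19 on the Hopx-/- array and -0.16, -0.17 and -0.19 on the Hopx-sufficient array. They lay close together, with differences of 0.31, 0.33 and 0.37 and a mean of 0.34 ± 0.03 (SD over 3 probe sets), or 1.26-fold. Those at 0.33 and 0.37 carry a suffix for probe sets that may also read other genes. The probe set without it was at 0.31, short of the 0.32 threshold. Only 3.5% of all genes lay as high or higher.

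**Figure D2:**
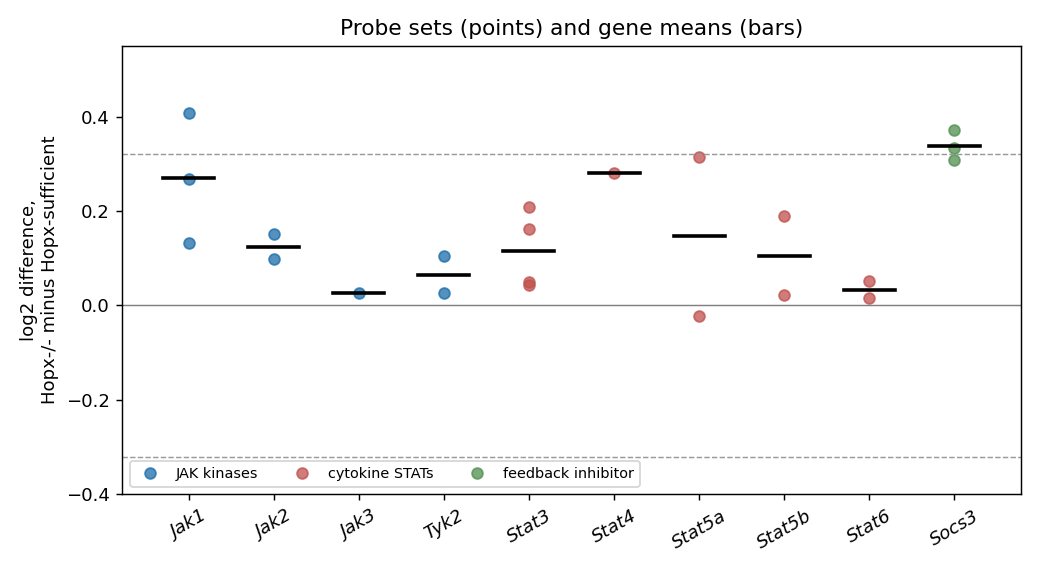
Log2 difference, Hopx-/- minus Hopx-sufficient, for each probe set (points, coloured by role) and the mean per gene (black bars); dashed lines mark 0.32 in either direction. The bar of Socs3 is the only one past the dashed line, and the Stat5a probe sets stand furthest apart; 2 probe sets that Jak3 shares with Insl3, which turn its mean to -0.03, are not drawn.

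By probe set, 21 of 22 lay above 0, against 50.0% of all probe sets with 1 symbol. Probe sets of a gene read the same transcripts and are not independent. In order of size the gene means ran Socs3, Stat4, Jak1, Stat5a, Jak2, Stat3, Stat5b, Tyk2, Stat6 and Jak3, and in this order no 2 neighbours differed by more than the 0.18 spread between probe sets of a gene. The kinases had a median of 0.09 and the STATs one of 0.12.

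**Figure D3:**
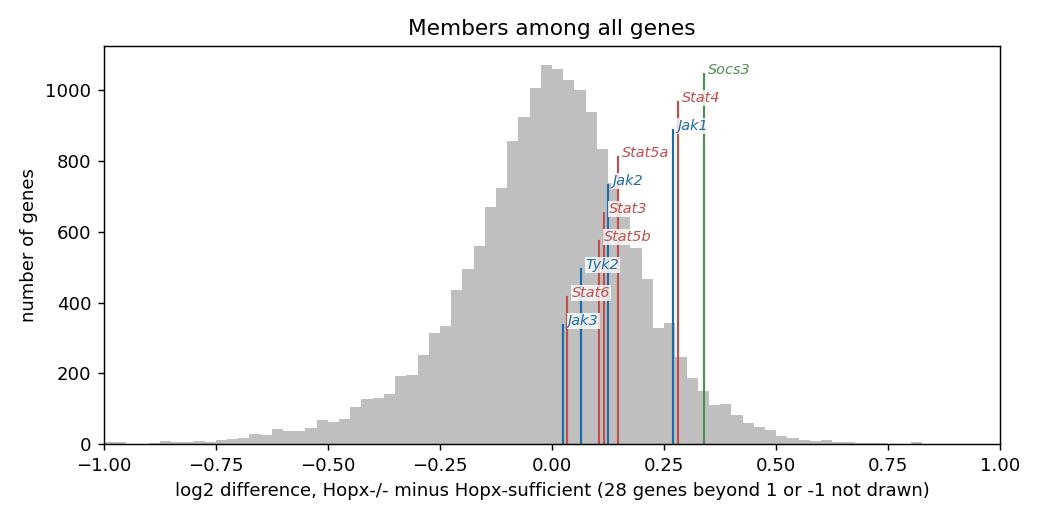
Number of genes (grey histogram) by log2 difference, Hopx-/- minus Hopx-sufficient, with the means of the 10 genes as coloured lines whose heights only separate the labels. Jak1, Stat4 and Socs3 stand in the upper shoulder of the distribution at 0.27 to 0.34, and the other 7 lie between 0.03 and 0.15, where Jak3 would fall at -0.03 with the probe sets it shares with Insl3.

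Upstream sequence was read for all 10 genes from the RefSeq promoter table (GRCm38.p6). In the 250 bases before each of 13 annotated starts, the gamma-activated site TTCNNNGAA, the letters that STAT dimers other than STAT6 favour, was searched; it reads the same on both strands. It was found before 1 of the 13 starts, that of Socs3, and before 7.02% of all 32851 starts. By gene this was 1 of 10, against 8.13% of all genes, so the count is near the share over all genes. The wider spacing TTCNNNNGAA favoured by STAT6 was found before none of the 13 and before 5.85% of all starts. The Socs3 window is shown because it holds the only match, in capitals at 154 to 146 bases before the start (chr11:117969367-117969616, minus strand).
Socs3: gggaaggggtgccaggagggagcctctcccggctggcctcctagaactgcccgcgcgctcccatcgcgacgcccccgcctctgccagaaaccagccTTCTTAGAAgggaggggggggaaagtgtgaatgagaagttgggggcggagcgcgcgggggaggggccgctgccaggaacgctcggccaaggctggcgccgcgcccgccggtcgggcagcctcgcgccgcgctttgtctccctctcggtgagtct
A match is a description of letters and not a site shown to be bound.

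Stretches of the Stat5 promoters are shown because these genes are close paralogs that lie side by side. Each has 2 annotated starts. The longest run that a Stat5a window shares with a Stat5b window is 16 bases (capitals), placed 32 to 17 bases before a Stat5a start (chr11:100860445-100860474, plus strand) and 23 to 8 bases before a Stat5b start (chr11:100822571-100822600, minus strand).
Stat5a: tttgaggAGGAAATCGCTGCTCTctgctcc
Stat5b: ttttagaAGGAAATCGCTGCTCTttgcttc
The other pairs of windows share runs of at most 11 bases.

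Other genes of the pathway were read from textbook lists. Stat2, which joins the type I interferon factor complex, was 1.27-fold lower on the Hopx-/- array, with probe sets at -0.46 and -0.23, a difference that 5.95% of all genes matched or passed downward. Other inhibitors of the pathway (Socs1, Socs2, Cish, the PIAS proteins and phosphatases among them) had a median of 0.02. Of these 17 genes 10 were above 0 and 7 below, against 50.1% of all genes above 0. None differed by 0.32 or more, against 4.09% of all genes higher and 6.93% lower. The members furthest from 0 were the phosphatase gene Ptpn2 (-0.21), Pias2 (-0.21) and Socs4 (-0.20, with probe sets from -0.49 to 0.29). Of the other inducible inhibitors, Socs1 was at 0.04, Socs2 at 0.07 and the STAT5-induced Cish at -0.11. The 6 probe sets of Socs2 ranged from -0.10 to 0.42, so that its highest lay above all those of Socs3.

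Receptors that signal through JAKs had a median of 0.14, with 15 of 21 measured genes above 0, against 50.1% of all genes. Past 0.32 on the log2 scale 6 were higher and 1 was lower, against 4.09% of all genes higher and 6.93% lower. The largest differences were those of Il12rb1, a subunit of the IL-12 and IL-23 receptors (-0.55, 1 probe set), Ifnar1, a subunit of the type I interferon receptor (0.47, with probe sets at 0.29 and 0.65), and Il10rb, a subunit of the IL-10 receptor (0.43 by both probe sets). The IL-6 receptor chains, which act through Stat3 and are restrained by Socs3, were both above 0. Il6ra, the chain that binds IL-6, was at 0.33 (0.31 and 0.35 by probe set). Il6st, encoding gp130, was at 0.40 (4 probe sets from 0.23 to 0.66). Other chains that partner gp130 did not stand with them, with Lifr at 0.03 and Osmr at -0.16 (all 3 probe sets below 0). Il10ra, the IL-10 binding chain that pairs with Il10rb, was at -0.01. Of the receptor chains of IL-2, Il2rb was at 0.25 (0.16 and 0.35 by probe set). Il2ra was at -0.06, with probe sets on both sides of 0 (-0.19 and 0.08). Il2rg had no probe set with its symbol alone and was not measured. Il2ra encodes CD25, which was used in the sort.

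Ligand genes had a median of 0.00, with 9 of 18 above 0 and 9 below, against 50.1% of all genes above 0. Il9 and Il10 counted as below only through the centring, since their deposited values were the same on both arrays. Past 0.32 on the log2 scale 4 were lower and none was higher, against 6.93% of all genes lower and 4.09% higher, and the mean was -0.09. Lif (-0.67), Il12a, which encodes a subunit of IL-12 (-0.63, 1 probe set), and Il15 (-0.43, 1 probe set) differed most. The probe sets of Lif disagreed, at -1.38 and 0.04.

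Genes known to be induced through STAT4 lay on the other side of 0 from Stat4 itself. Of 10 listed, 8 were below 0, where 50.1% of all genes lay above 0. With differences centred on the spike-ins 6 were below 0, where 75.1% of all genes lay above it. The median of the listed genes was -0.19, while Stat4 was at 0.28 and all genes had a median of 0.00. With spike-in centring these values were -0.07, 0.40 and 0.12. Tbx21, which encodes the Th1 factor T-bet, was at -0.56, the stress-response gene Gadd45b at -0.36 and Ifng, encoding interferon-gamma, at -0.31. Il18r1, a chain of the IL-18 receptor, was the highest at 0.27. Past 0.32 on the log2 scale 2 of these 10 genes were lower and none was higher, against 6.93% of all genes lower and 4.09% higher.

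Targets of the other STATs had medians above 0 that were lower than the median of 0.12 over the 5 cytokine STAT genes. STAT5 targets had a median of 0.06, with 10 of 16 above 0, against 50.1% of all genes. Past 0.32 on the log2 scale 1 of the 16 was higher and 1 lower, against 4.09% of all genes higher and 6.93% lower. The granzyme gene Gzmb was lowest at -2.16 (1 probe set), while the survival gene Bcl2 was at 0.40 (5 probe sets from 0.29 to 0.50) and the kinase gene Pim1 at 0.29. The list's mean was -0.05, of opposite sign to its median. STAT3 targets had a median of 0.05, with 9 of 15 above 0, against 50.1% of all genes. Past 0.32 on the log2 scale 4 of the 15 were higher and none was lower, against 4.09% of all genes higher and 6.93% lower. They were led by Fos (1.10, 1 probe set), Bcl6 (0.39) and Socs3 itself. Of 7 STAT6 targets 5 were above 0, against 50.1% of all genes, and their median of 0.10 was above Stat6 itself at 0.03. Upward, 1 of these targets was past 0.32, against 4.09% of all genes. Their furthest members were Gfi1, a transcriptional repressor (0.39), Gata3, the Th2 factor (0.15), and Il4ra, an IL-4 receptor chain (0.14).

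**Figure D4:**
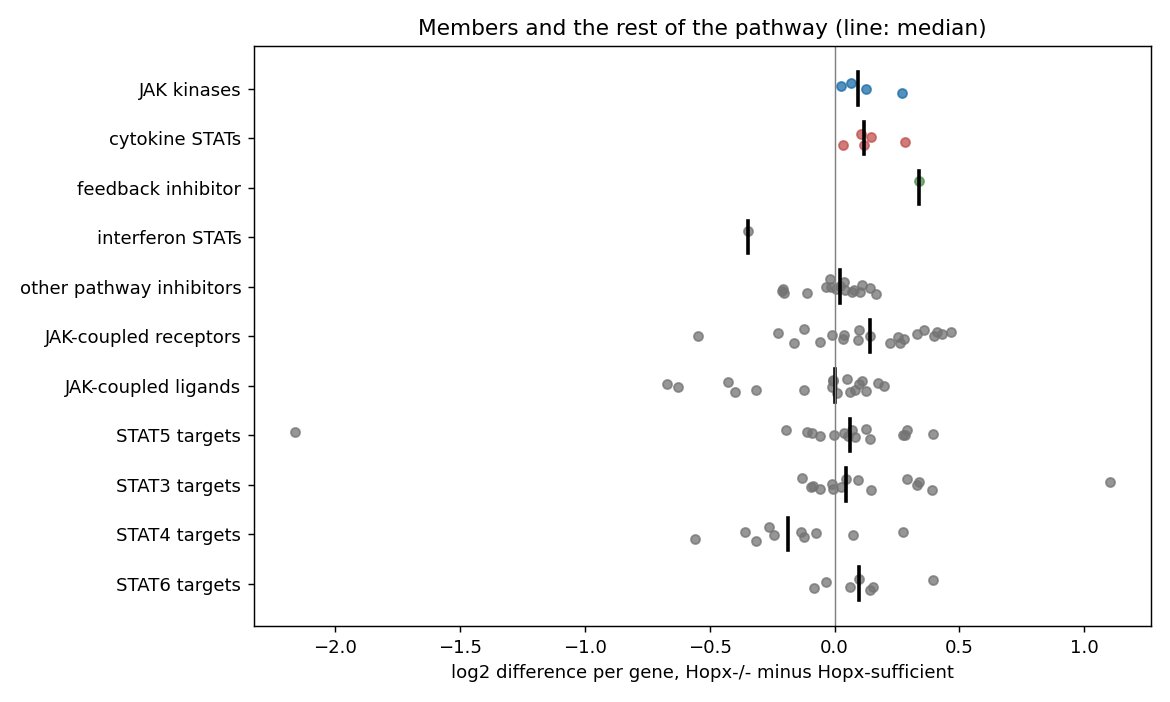
Log2 difference per gene, Hopx-/- minus Hopx-sufficient (points, 1 per measured gene), for the 10 genes described (top 3 rows) and the other pathway lists, with list medians as black lines. STAT4 targets have the lowest median of the lists with several genes, at -0.19, while JAK kinases and cytokine STATs lie at 0.09 and 0.12, with Jak3 drawn from the probe set it does not share.

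Markers of T cells were mostly above 0. The CD3 chain genes Cd3e, Cd3d and Cd3g were at 0.22, 0.22 and 0.28 and Cd4 at -0.01, and 7 of the 10 genes described lay below the lowest CD3 gene. Foxp3, Ikzf2 and Ctla4 were at 0.28, 0.37 and 0.33. Over 8 T cell and Treg markers the median was 0.25, with 6 above 0 and Cd4 and Il2ra (-0.06) below. Of 14 macrophage and dendritic cell markers 7 were above 0 and 7 below, with a median of 0.10. Those above 0 were Cd68, Adgre1, C1qa, C1qb, C1qc, Csf1r and Cd14, which lay between 0.24 and 0.50, higher than 7 of the 10 genes described. Past 0.32 on the log2 scale 5 of the 14 were higher and 3 lower, against 4.09% of all genes higher and 6.93% lower. Those below 0 included the MHC class II genes H2-Aa (-0.34) and H2-Ab1 (-0.38) and the lysozyme gene Lyz2 (-0.38). All 6 measured B cell markers were below 0 (from -0.41 to -0.01), and CD8 T and NK cell markers went both ways (3 of 6 above 0, from -0.42 to 0.43). Of all genes 50.1% were above 0. Levels of the markers cannot be read from centred values, and their part in the differences of the 10 genes was not tested.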

How the data were processed

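RNA was prepared with Trizol and QIAGEN clean-up, per the labels. The authors deposited log2-type values for 45101 probe sets with the average of both arrays taken off, as seen from row sums within 1e-06 of 0. The summarisation, normalization and log base are not given in the sources used here. Base 2 was assumed. Natural logs would make every difference 1.44 times larger. The number of arrays limits the precision.

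Gene names came from the 2016 annotation of the platform, brought up to date by gene ID with a GRCm38.p6 table (34741 of 34945 probe sets matched). Probe sets with several symbols were left out. The thresholds of 0.32 on the log2 scale and 1.5-fold are rules of size and not tests. The members and the gene lists were chosen with earlier results of these data known. Named genes are the 10 members, the 3 most different of each other pathway list and Hopx. Others named, such as Il6ra, Il6st, Il2rb, Socs1 and the marker genes, were chosen after their values were seen. No gene was sought for a similar pattern, since 2 arrays give none. The gene summary was run on shuffled values with a known shift added to some genes. A mean over probe sets returns such a shift by construction, so the run checks the code only. Alternatives concerned the centring, the probe sets used and the log base. Python 3.11.15, numpy 2.4.6, pandas 2.3.3 and matplotlib 3.10.9 were used.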

Additional observations from a re-analysis of the deposited data

How the results depend on the processing

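The median over the 10 genes stayed above 0 under every alternative run, between 0.115 and 0.24, the upper end being reached with differences centred on the hybridization spike-ins. That centring also raised the median of all genes to 0.12, so the 10 genes stood 0.12 above all genes with either centring. All genes of the set that kept a probe set had means above 0 under the alternatives of centring, probe set choice and log base. Without probe sets that may read several transcripts or genes 7 of 10 did so, as Jak3, Stat5a and Stat5b had none left. Several of these alternatives could not turn the sign of a mean or of the median. Both other centrings raise every gene, natural logs only rescale, and leaving out the finest value steps removed none of the 22 probe sets. With the 2 probe sets shared with Insl3, an alternative added after the data were seen, Jak3 was at -0.03. The count past 0.32 on the log2 scale moved from the reported 1 of 10 genes, where 11.0% of all genes were past it in either direction. It was 3 with spike-in centring (15.8% of all genes) and 2 with each gene read from its most different probe set (22.2%). It was 0 without the probe sets that may read several transcripts or genes (11.3%) and 3 with natural logs (23.2%). The log base and the choice of probe sets set these counts by construction. No gene of the set reached 1.5-fold under any of these alternatives. None of the 22 probe sets belonged to the 6.18% with the finest value steps. No paired analysis was possible because there was 1 array of either kind, and for the same reason none was left out.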

Other observations

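Stat5b, Stat5a and Stat3 follow each other directly among the protein-coding genes of mouse chromosome 11 (GRCm38.p6 gene table). Their means were 0.11, 0.15 and 0.12, but their probe sets ranged more widely, from -0.02 to 0.32. The gene on the Stat5b side, Ghdc, was at -0.17 (1 probe set), and that on the Stat3 side, Cavin1, which encodes a coat protein of caveolae, at 0.20 (3 probe sets). These genes were chosen by place and the values are given as a description.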
